A study of Mus musculus with 9 samples.

Results

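The fatty acid transport proteins, encoded by Slc27a genes, and the long-chain acyl-CoA synthetases, encoded by Acsl genes, were examined in brown adipose tissue of obese mice given cotadutide. Their 10 members were Slc27a1, Slc27a2, Slc27a3, Slc27a4 and Slc27a6 among the transport proteins, and Acsl1, Acsl3, Acsl4, Acsl5 and Acsl6 among the synthetases. They were taken by symbol from the 49315 genes listed in each count file, and each symbol matched 1 Ensembl gene. Of the 10, 9 passed the filter on low counts and were among the 14747 genes tested, and Slc27a6 was too low to be tested.

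RNA came from 9 male C57Bl/6J mice, 5 given cotadutide and 4 given vehicle, with 1 library per mouse. Cotadutide is a peptide that activates both the GLP-1 receptor and the glucagon receptor, and each agent was injected under the skin daily for 28 days, at a dose not given in the sources used here. Both groups were diet-induced obese animals, 14 weeks old before 3 weeks of acclimation, fed a diet with 60% fat to a weight of about 50 g, housed alone and not at thermoneutrality. Both groups therefore share the obesity, the diet and the housing, and lean mice are not part of the comparison.

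Long-chain fatty acids cannot be burned or stored until they are joined to coenzyme A. The Acsl enzymes perform this activation on the membranes of mitochondria, the endoplasmic reticulum and lipid droplets. The Slc27a proteins carry a related synthetase domain and promote uptake at the plasma membrane or activate very long-chain fatty acids inside the cell. In brown fat the acyl-CoA made in this way feeds heat production in mitochondria or returns to triglyceride, and mice without Slc27a1, or without Acsl1 in fat cells, are known to tolerate cold poorly.

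Library totals were 10759631 to 19459796 counts in cotadutide mice and 16064055 to 25108534 counts in vehicle mice. Levels are given in CPM, a gene's count over the scaled library total, times 10 to the power of 6, and changes are cotadutide over vehicle. A gene was called changed at a Benjamini-Hochberg adjusted p under 0.05 over all genes tested, by edgeR's quasi-likelihood test. By this rule 18.6% of the tested genes were called, 9.3% higher and 9.34% lower. The tissue label was checked against markers. The summed level of 8 brown adipocyte markers, Ucp1 among them, was 11003 to 16021 CPM in cotadutide mice and 7400 to 11482 CPM in vehicle mice, and none was at 0. Skeletal muscle mRNA was present in every library, with 12 markers summing to 4650 to 17377 CPM in cotadutide mice and 19896 to 43600 CPM in vehicle mice, and none at 0. Since these ranges did not touch, muscle mRNA and treatment cannot be told apart by group. General adipocyte markers, 7 in number, summed to 19327 to 23037 CPM in cotadutide mice and 13340 to 15831 CPM in vehicle mice, ranges that did not touch either, and 4 of the 7 were called higher. The 10 macrophage markers summed to 211 to 446 CPM in cotadutide mice and 338 to 578 CPM in vehicle mice, and 6 were called lower. Of the endothelial, fibroblast, erythroid, and Schwann and neuronal markers, 1 endothelial gene was called, as higher. The part of adipocyte and macrophage mRNA in the results was not tested.

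In cotadutide mice 2 transport protein genes rose, Slc27a1 by 1.80-fold and Slc27a2 by 2.56-fold, and 1 synthetase gene fell, which was Acsl6, at a level 2.504 times lower. The most abundant member, Acsl1, averaged 1787 CPM in cotadutide mice and 1810 CPM in vehicle mice and was not called. The remaining 5 tested members, Slc27a3, Slc27a4, Acsl3, Acsl4 and Acsl5, were not called either. Of the 9 tested members, 2 were thus higher and 1 lower, where 9.3% of all tested genes were called higher and 9.34% lower. The median log2 fold change of the 9 was -0.02, against 0.00313 over all genes tested. With so few members these counts say nothing about the families as a whole.

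**Figure D1:**
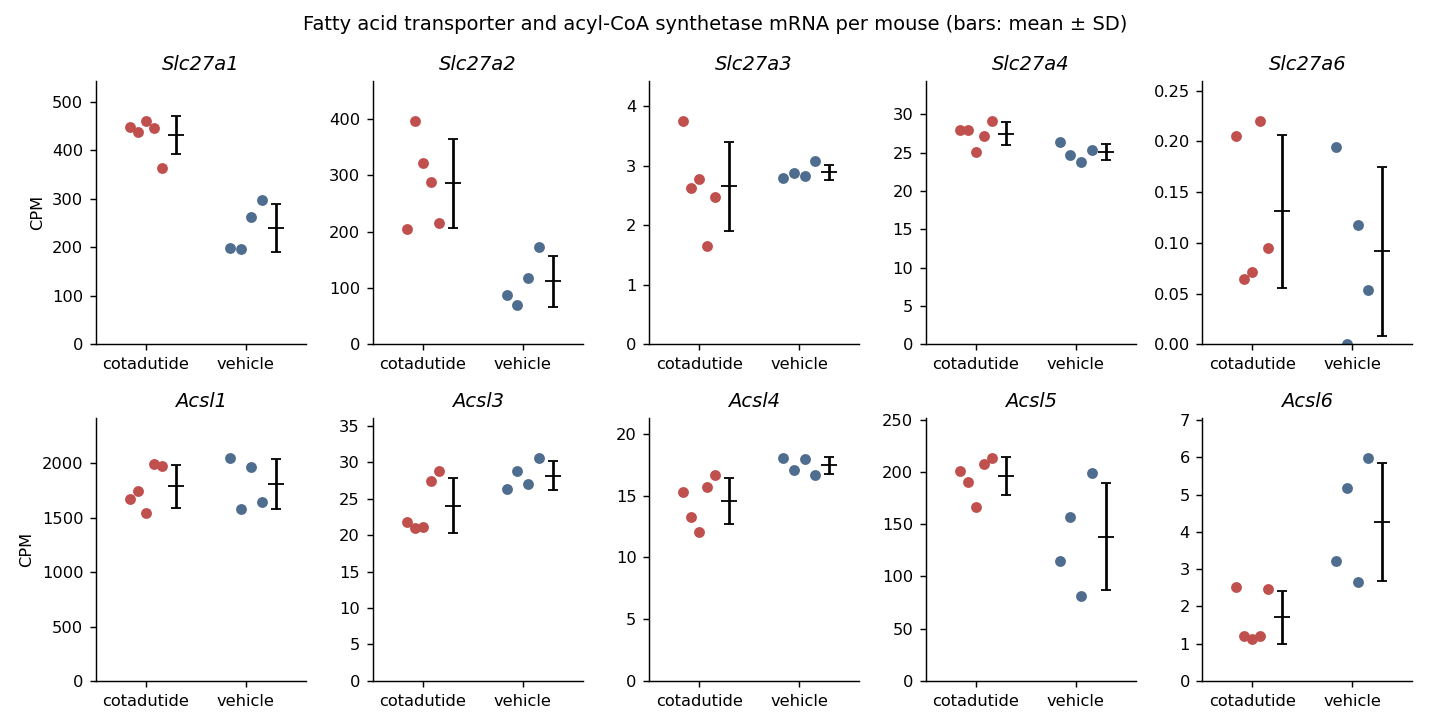
CPM of each of the 10 members (vertical axes, from 0) in each mouse, cotadutide left and vehicle right, with bars for the mean ± SD. The cotadutide points lie above all vehicle points for Slc27a1 and Slc27a2, below them for Acsl4 and Acsl6, and the groups overlap for the other members, with 4 of the 5 Slc27a4 points above and 4 of the 5 Slc27a3 points below all vehicle points.

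Slc27a1 (ENSMUSG00000031808) encodes the transport protein of fat and muscle whose movement to the plasma membrane responds to insulin, and it lies on chromosome 8 from 71568882 to 71587302 in the mm10 coordinates of the files. It had 448, 439, 460.3, 447 and 363 CPM in cotadutide mice 1 to 5, against 199, 197, 262 and 298 CPM in vehicle mice 1 to 4. The groups did not overlap. Cotadutide mice 1 to 4 sat close together, mouse 5 stood lower, and vehicle mouse 4 was the highest of its group. The mean was 431 ± 38.9 CPM in cotadutide mice (SD, n = 5) and 239 ± 49.5 CPM in vehicle mice (SD, n = 4). The log2 fold change was 0.85 (SE 0.14, edgeR adjusted p = 0.0133), and it ranged from 0.74 to 0.98 when any 1 of the 9 libraries was left out, with the call kept each time. Over all tested genes, 309 had a larger rise.

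Slc27a2 (ENSMUSG00000027359, chromosome 2 from 126552407 to 126588243) encodes an enzyme that activates very long-chain fatty acids in peroxisomes and the endoplasmic reticulum, best known from liver and kidney. Its values were 205, 396, 323, 289 and 216 CPM in cotadutide mice 1 to 5, against 87.3, 69.9, 117 and 173 CPM in vehicle mice 1 to 4. The groups did not overlap, although vehicle mouse 4, the highest of its group, came near cotadutide mouse 1. The mean was 286 ± 79.1 CPM in cotadutide mice (SD, n = 5) and 112 ± 45.3 CPM in vehicle mice (SD, n = 4). The log2 fold change was 1.35 (SE 0.28, edgeR adjusted p = 0.0169), and 66 tested genes had a larger rise. Leaving out vehicle mouse 1 ended the call, with an edgeR adjusted p of 0.0612 at a log2 fold change of 1.25, and so did testing with no filter on low counts (0.0543).

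Groups that did not overlap with cotadutide higher were found for 8.06% of all tested genes, and groups that did not overlap in either direction for 15.8%. Among the transport proteins these were Slc27a1 and Slc27a2, which also share their low vehicle mice, mouse 1 and mouse 2, and their high vehicle mouse, mouse 4. Together the 5 transport protein genes summed to 747 ± 101 CPM in cotadutide mice (SD, n = 5, range 611 to 866) and 379 ± 93.9 CPM in vehicle mice (SD, n = 4, range 295 to 499.9). Slc27a1 made up 58.1 ± 5.30% of that sum in cotadutide mice and 63.6 ± 3.05% in vehicle mice. These shares are of CPM and are not adjusted for gene length. Per kilobase of exon, Slc27a1 averaged 73.9 and Slc27a2 76.1 CPM in cotadutide mice, and 41.0 and 29.8 CPM in vehicle mice.

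The promoter windows of the called members are shown because 2 of these genes rose and 1 fell. Windows run from 250 bases before to 50 bases after a RefSeq transcript start on GRCm38.p6, the patch release of the mm10 assembly, and 9 of the 10 members had 14 such windows. Capitals mark matches on either strand to AGGTCA, the unit recognised by many nuclear receptors, read as TGACCT on the other strand. The Slc27a1 window shown is the first of its 3, and none of the 3 holds a match.
Slc27a1, chr8:71568621-71568920, plus strand: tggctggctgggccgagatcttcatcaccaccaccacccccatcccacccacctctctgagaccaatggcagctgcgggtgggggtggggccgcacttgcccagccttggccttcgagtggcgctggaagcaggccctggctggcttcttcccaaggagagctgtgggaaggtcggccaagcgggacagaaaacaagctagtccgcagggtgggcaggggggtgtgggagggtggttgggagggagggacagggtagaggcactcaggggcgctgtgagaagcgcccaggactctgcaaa
Slc27a2, chr2:126552774-126553073, plus strand: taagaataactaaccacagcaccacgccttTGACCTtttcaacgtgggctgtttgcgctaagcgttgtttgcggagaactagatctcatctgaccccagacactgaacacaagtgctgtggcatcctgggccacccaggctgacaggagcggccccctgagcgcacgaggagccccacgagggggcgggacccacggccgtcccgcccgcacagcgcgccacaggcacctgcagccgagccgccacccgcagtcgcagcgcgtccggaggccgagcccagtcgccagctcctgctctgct
Acsl6, chr11:54303574-54303873, plus strand: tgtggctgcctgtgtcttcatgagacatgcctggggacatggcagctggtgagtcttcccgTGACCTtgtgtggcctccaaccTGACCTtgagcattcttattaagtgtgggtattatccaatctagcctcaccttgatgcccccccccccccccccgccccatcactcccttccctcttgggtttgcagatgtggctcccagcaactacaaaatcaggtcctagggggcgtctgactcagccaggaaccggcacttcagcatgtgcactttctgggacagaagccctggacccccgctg

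In these windows Slc27a2 held 1 match to AGGTCA, starting 220 bases before the transcript start, and Acsl6 held 2, starting 189 and 167 bases before it. The other 2 of the 3 Acsl6 windows held no match. A match was found in 2 of the 14 member windows and in 16.3% of 32851 promoter windows of the same length genome-wide. The same unit as a direct repeat with 1 base of any kind between its copies, the arrangement bound by PPAR with RXR, was in 0 of the 14 windows and in 0.0396% of all windows. The cyclic AMP response element TGACGTCA was also in 0 of the 14 member windows, against 1.79% of all windows, and the E-box CACGTG was in 1, the third window of Slc27a1, against 7.15%. The GC box GGGCGG was in 11 of the 14 windows, against 35.7% of all windows. The member windows held 50 to 76% G and C, against a median of 52.7% over all windows, and the GC box count is not adjusted for this. All these motif counts are matches of letters only.

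The other transport proteins were low. Slc27a4, a transport protein known from gut and skin, had 28.0, 27.9, 25.1, 27.2 and 29.1 CPM in cotadutide mice 1 to 5, against 26.3, 24.7, 23.8 and 25.4 CPM in vehicle mice 1 to 4. The groups overlapped through cotadutide mouse 3, and the change of 1.09-fold was not called (log2 fold change 0.13, SE 0.07, edgeR adjusted p = 0.222). Slc27a3, a synthetase of this family with little known transport activity, had 1.65 to 3.75 CPM in cotadutide mice and 2.80 to 3.07 CPM in vehicle mice (edgeR adjusted p = 0.725). Its cotadutide values lay on both sides of the vehicle values, and they came from 26 to 73 counts a library. Slc27a6, known as the heart's transport protein, had 11 counts over the 5 cotadutide libraries and 8 over the 4 vehicle libraries. These equal 0.141 CPM (exact Poisson 95% interval 0.0705 to 0.253) and 0.0934 CPM (0.0403 to 0.184), intervals that cover counting error only. A difference in Slc27a6 was not detectable at this depth.

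Among the synthetases, Acsl1 (ENSMUSG00000018796, chromosome 8 from 46471037 to 46536051) is the main isoform of fat, heart and muscle and directs fatty acids to oxidation in brown fat. It had 1668, 1748, 1546, 1993 and 1979 CPM in cotadutide mice 1 to 5, against 2049.6, 1583, 1965 and 1642 CPM in vehicle mice 1 to 4. Both groups ran over nearly the same range. The mean was 1787 ± 195 CPM in cotadutide mice (SD, n = 5) and 1810 ± 232 CPM in vehicle mice (SD, n = 4), with a log2 fold change of -0.02 (SE 0.12, edgeR adjusted p = 0.926). Its direction was not stable, since it was above 0 without cotadutide mouse 3, vehicle mouse 1 or vehicle mouse 3, at most 0.05. A p that misses the threshold does not show equal levels.

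Acsl5 (ENSMUSG00000024981, chromosome 19 from 55253369 to 55296627), a synthetase of mitochondria and the endoplasmic reticulum, had 201, 190.2, 167, 208 and 213 CPM in cotadutide mice 1 to 5. Vehicle mice 1 to 4 had 115, 157, 81.0 and 199 CPM. The cotadutide mice were close together and the vehicle mice were spread, with vehicle mouse 4 inside the cotadutide range. The coefficient of variation was 9.40% in cotadutide mice and 37.1% in vehicle mice, where the medians over all tested genes were 14.4% and 13.5%. The log2 fold change was 0.51 (SE 0.21, edgeR adjusted p = 0.117) and was not called. Leaving out vehicle mouse 4 brought it past the threshold, at a log2 fold change of 0.74 with an edgeR adjusted p of 0.0178.

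Acsl3 and Acsl4 were lower in most cotadutide mice without passing the threshold. Acsl3, the synthetase of the endoplasmic reticulum and of growing lipid droplets, had 21.8, 21.0, 21.1, 27.4 and 28.8 CPM in cotadutide mice 1 to 5, against 26.3, 28.8, 27.0 and 30.6 CPM in vehicle mice 1 to 4. Cotadutide mice 1 to 3 were below every vehicle mouse and the other two were among them (log2 fold change -0.23, SE 0.11, edgeR adjusted p = 0.159). Acsl4, which prefers arachidonic acid and is known for its role in ferroptosis, had 15.3, 13.3, 12.1, 15.7 and 16.6 CPM in cotadutide mice, against 18.1, 17.0, 18.0 and 16.7 CPM in vehicle mice. The groups did not overlap but nearly met, with 16.64 CPM in cotadutide mouse 5 and 16.67 CPM in vehicle mouse 4, and the test missed the threshold (log2 fold change -0.26, SE 0.10, edgeR adjusted p = 0.0942). Groups that did not overlap with cotadutide lower were found for 7.79% of all tested genes.

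Acsl6 (ENSMUSG00000020333, chromosome 11 from 54303798 to 54364756) activates docosahexaenoic acid and is best known from brain, with expression in muscle and red cell precursors too. It was a minor mRNA here, with 2.52, 1.22, 1.14, 1.21 and 2.47 CPM in cotadutide mice 1 to 5, against 3.22, 5.18, 2.65 and 5.99 CPM in vehicle mice 1 to 4. The groups did not overlap, with cotadutide mouse 1 next to vehicle mouse 3, and the values rest on 16 to 49 counts per cotadutide library and 45 to 126 per vehicle library. The mean was 1.71 ± 0.717 CPM in cotadutide mice (SD, n = 5) and 4.26 ± 1.58 CPM in vehicle mice (SD, n = 4), with a log2 fold change of -1.32 (SE 0.32, edgeR adjusted p = 0.0227). The call was lost without cotadutide mouse 2 (edgeR adjusted p = 0.0586), vehicle mouse 1 (0.0556) or vehicle mouse 2 (0.0628). In the files' exon coordinates Acsl6 shares 202 of its 9914 exon bases with Gm12224 on the other strand. Gm12224 had 1103 counts over the 9 libraries where Acsl6 had 497. Gm12224 also fell, at 3.97 ± 1.85 CPM in cotadutide mice (SD, n = 5) and 9.36 ± 4.24 CPM in vehicle mice (SD, n = 4; edgeR adjusted p = 0.0401). The strand setting of the counting is not given, so how reads in the shared stretch were counted is not known. The part of Gm12224 in the Acsl6 values was not tested.

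**Figure D2:**
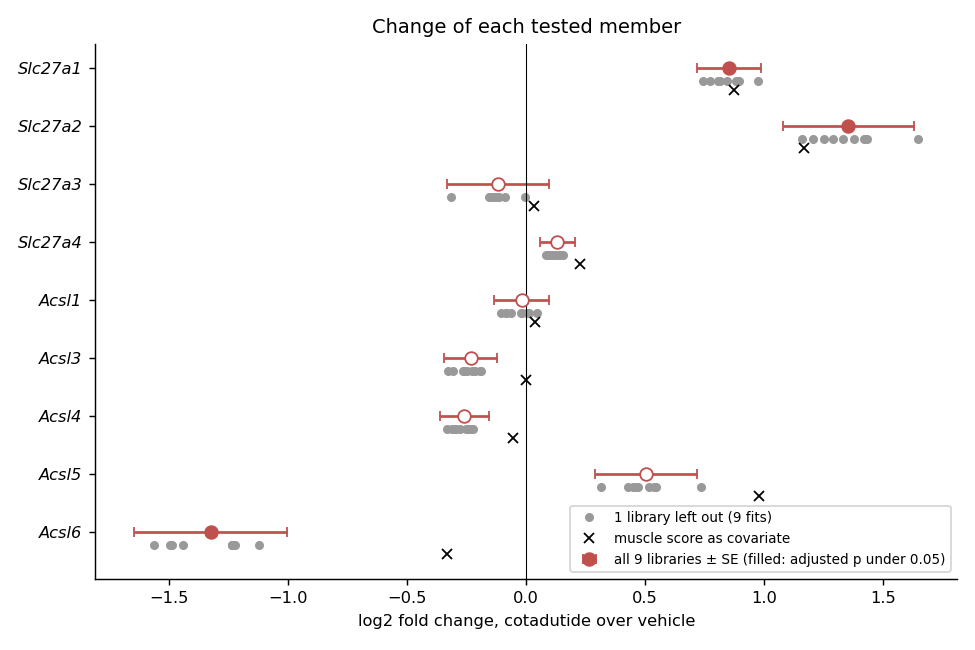
Log2 fold change, cotadutide over vehicle (horizontal axis), of the 9 tested members with its SE, filled where the edgeR adjusted p was under 0.05, with the values of 9 fits that each left out a library and of the fit with a muscle score. Slc27a1 stayed between 0.74 and 0.98 over the fits that left out a library, and Acsl6 moved to -0.33 in the fit with the muscle score.

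Acsl6 levels were set beside the muscle mRNA of the same libraries. The cotadutide mice with the most muscle mRNA, mouse 1 at 17228 and mouse 5 at 17377 CPM of summed markers, had 2.52 and 2.47 CPM of Acsl6. The cotadutide mice with the least, mice 2, 3 and 4 at 8158, 4650 and 11122 CPM, had 1.14 to 1.22 CPM of Acsl6. Vehicle mouse 4, with 43600 CPM of muscle markers, had the highest Acsl6 level at 5.99 CPM, and vehicle mice 1, 2 and 3, with 19896, 24825 and 22836 CPM of muscle markers, had 3.22, 5.18 and 2.65 CPM. With the mean muscle marker level of each library as a covariate, the log2 fold change of Acsl6 was -0.33 (SE 0.35, edgeR adjusted p = 0.661). In that fit Slc27a1 was at 0.87 (edgeR adjusted p = 0.256), Slc27a2 at 1.17 (0.321) and Acsl5 at 0.98 (0.284). No gene of the 14747 was called in that fit, while 2181 had an unadjusted p under 0.05, 3 members among them. The score was at most 0.120 in cotadutide mice and at least 0.446 in vehicle mice. The fit therefore cannot separate muscle mRNA from treatment, and the part of muscle mRNA in the change of Acsl6 was not tested. In bulk tissue, fewer cells of a type and less RNA per cell cannot be told apart.

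**Figure D3:**
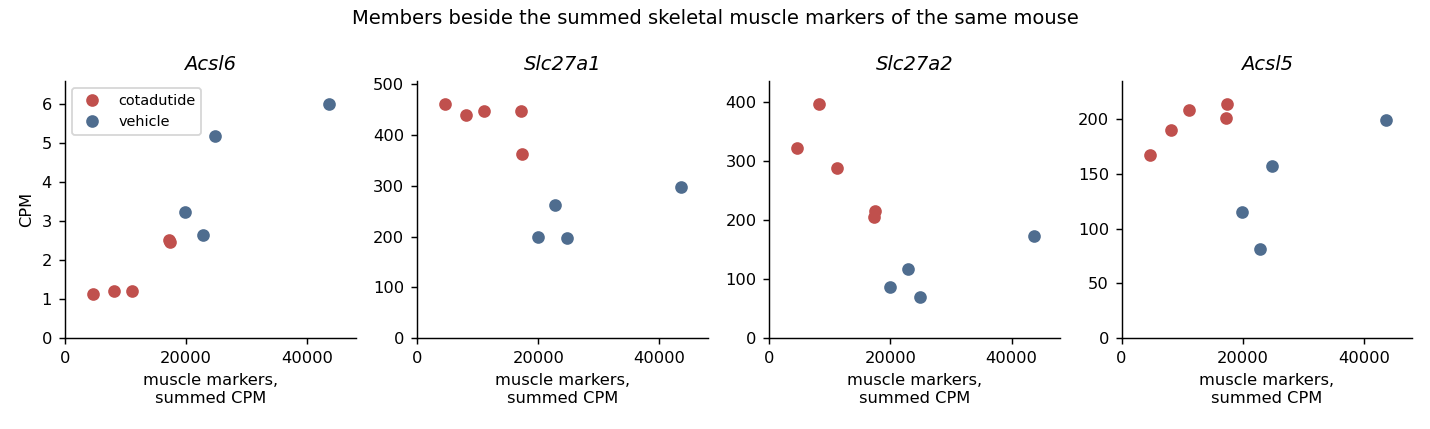
CPM of Acsl6, Slc27a1, Slc27a2 and Acsl5 (vertical axes, from 0) against the summed CPM of 12 skeletal muscle markers (horizontal axes), 1 point per mouse. All cotadutide mice lie left of all vehicle mice, and Acsl6 is highest in the vehicle mouse with 43600 CPM of muscle markers.

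Levels of different members were compared per kilobase of exon, using the length column of the files, which joins all annotated exons. Acsl1 stood first in both groups, at 170.4 ± 18.6 CPM per kb in cotadutide mice (SD, n = 5) and 173 ± 22.1 CPM per kb in vehicle mice (SD, n = 4). A second tier held Slc27a2, Slc27a1 and Acsl5, at 76.1 ± 21.1, 73.9 ± 6.67 and 62.2 ± 5.84 CPM per kb in cotadutide mice. In vehicle mice these stood at 29.8 ± 12.1 for Slc27a2, 41.0 ± 8.48 for Slc27a1 and 43.8 ± 16.3 CPM per kb for Acsl5. Within this tier the ranges over mice overlapped in each group. Compared within the same mouse, Slc27a1 was above Slc27a2 in 2 of 5 cotadutide mice and in 4 of 4 vehicle mice. Slc27a1 was above Acsl5 in 4 of 5 cotadutide mice and 1 of 4 vehicle mice, and Slc27a2 was above Acsl5 in 3 of 5 and 1 of 4. Slc27a4 and Acsl3 followed at 6.22 and 5.51 CPM per kb in cotadutide mice and 5.68 and 6.47 CPM per kb in vehicle mice. Below them came Acsl4 (2.70 CPM per kb in cotadutide and 3.23 in vehicle mice), Slc27a3 (1.03 and 1.13), Acsl6 (0.173 and 0.430) and Slc27a6 (0.0528 and 0.0368). The exon length exceeds the longest coding transcript for most members, Acsl1 among them (10483 against 3897 bases). For Acsl5 the exon length is the shorter (3150 against 4243 bases). Dividing by the transcript therefore lowers Acsl5, from 43.8 to 32.5 CPM per kb in vehicle mice, and raises Slc27a1 and Slc27a2. Divided by the longest coding transcript of GENCODE M21 instead, Acsl1 stood at 459 CPM per kb in cotadutide and 464 in vehicle mice. Slc27a1, Slc27a2 and Acsl5 followed in that order of means in both groups. By that length Slc27a1 was above Slc27a2, and also above Acsl5, in 5 of 5 cotadutide and 4 of 4 vehicle mice. Slc27a2 was above Acsl5 in 5 of 5 and 3 of 4, so the order within this tier depends on the length used.

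**Figure D4:**
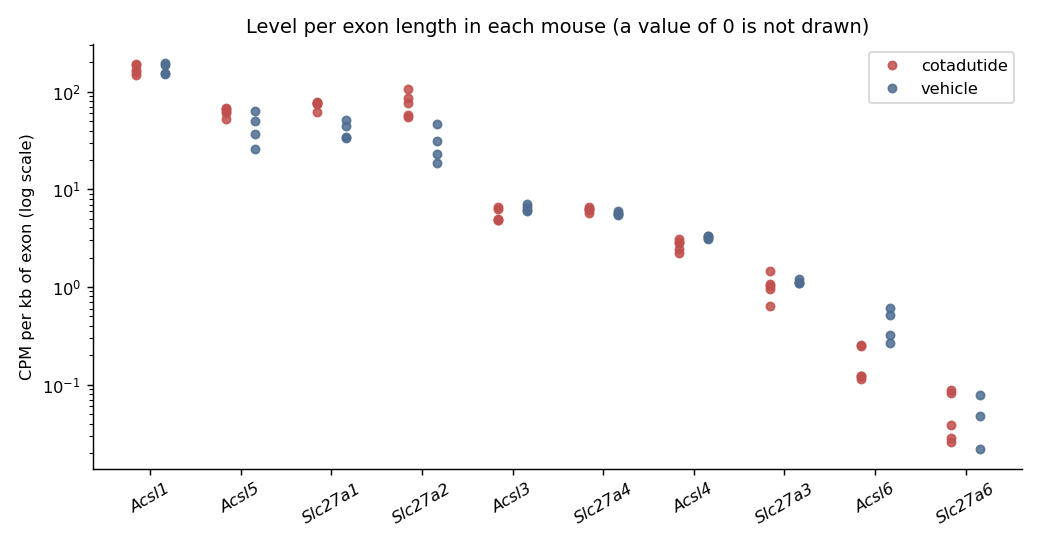
CPM per kilobase of exon on a log axis for the 10 members in each mouse, cotadutide left of vehicle, ordered by the vehicle mean. Acsl1 stands above all others, at 170.4 CPM per kb in cotadutide and 173 in vehicle mice, and Slc27a6 is lowest.

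Acsl1 also held most of the CPM of the Acsl family. The 5 Acsl genes summed to 2023 ± 217 CPM in cotadutide mice (SD, n = 5) and 1998 ± 190.4 CPM in vehicle mice (SD, n = 4). Acsl1 made up 88.3 ± 0.540% of that sum in cotadutide mice and 90.4 ± 3.41% in vehicle mice, with ranges of 87.4 to 88.8% and 86.7 to 93.9%. These shares are not adjusted for length, and Acsl1 has 10483 exon bases against 3150 for Acsl5.

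The genes whose profile over the 9 libraries lay nearest to a member were taken by the root mean square distance of centred log2 CPM, over 9746 named genes with a mean of at least 5 CPM. For Slc27a1 these were Cad, Ces1f and Pdp2, at distances of 0.131, 0.132 and 0.133, against a median of 0.490 over genes and a spread of Slc27a1 itself of 0.473. For Slc27a2 they were Gpx3, Cox6b2 and Gpx8, at 0.165 to 0.179, against a median of 0.818 and a spread of Slc27a2 itself of 0.810. For Acsl1, which varied little, they were Pitrm1, Cask and Enpp2, at 0.0556 to 0.0618. The median there was 0.240 and the spread of Acsl1 itself 0.151. For Acsl5 they were Rundc3a, Grrp1 and Impa2, at 0.171 to 0.182, against a median of 0.470 and a spread of 0.444. These distances describe 9 mice and carry no test.

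Around the members, 6 lists of genes were counted in the same edgeR test. They held other acyl-CoA synthetases, fatty acid supply and binding, acyl-CoA entry to mitochondria and peroxisomes, glycerolipid synthesis, thioesterases and PPAR regulators. Not every list gene handles fatty acyl-CoA itself. Of their 68 tested genes, 21 were higher and 1 lower, with a median log2 fold change of 0.24 against 0.00313 over all tested genes, of which 9.3% were called higher and 9.34% lower. With the muscle score as a covariate, whose values did not overlap between the groups, the 22 calls became 0. With the mouse number as a block they became 11. The summed adipocyte markers were higher and the summed muscle markers lower in every cotadutide mouse than in any vehicle mouse. Fabp4 and Pparg are among both the adipocyte markers and the list genes, so that sum is not independent of the lists. Fabp4 alone averaged 13458 CPM in cotadutide mice and 9993 CPM in vehicle mice. The 22 calls became 12 when cotadutide mouse 2 was left out and 14 for cotadutide mouse 3 or mouse 4. They became 2 when vehicle mouse 1 was left out, 6 for vehicle mouse 2, 8 for vehicle mouse 3 and 37 for vehicle mouse 4.

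Of the other acyl-CoA synthetases, 9 of 15 were tested, 3 were higher and 0 lower (median log2 fold change 0.47). They were Aacs, the acetoacetyl-CoA synthetase (1.46-fold, edgeR adjusted p = 0.0158), Acss1, the mitochondrial acetyl-CoA synthetase (1.57-fold, 0.0165), and Acsm3, a medium-chain synthetase (1.57-fold, 0.039). None of these 3 activates long-chain fatty acids. Of the 16 supply and binding genes, 4 were higher and 1 lower (median log2 fold change 0.08). Lmf1, which matures lipoprotein lipase, was 1.49-fold higher (edgeR adjusted p = 0.0164), the binding protein Fabp4 1.35-fold (0.0212) and the acyl-CoA binding Acbd4 1.26-fold (0.0259). The gene that fell was Got2, an aminotransferase also described as a plasma membrane fatty acid binding protein, at 59.4 ± 21.5 CPM in cotadutide mice (SD, n = 5) and 110.1 ± 19.5 CPM in vehicle mice (SD, n = 4; edgeR adjusted p = 0.0314). It was chosen after its values were seen.

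Of the 11 genes of acyl-CoA entry to mitochondria and peroxisomes, 4 were higher and 0 lower (median log2 fold change 0.25). Acacb, whose product makes the malonyl-CoA that restrains entry, rose 1.60-fold (edgeR adjusted p = 0.0156), as did Mlycd, which degrades malonyl-CoA (1.54-fold, 0.0205), and the carnitine acetyltransferase Crat (1.32-fold, 0.0304). Of the 13 glycerolipid synthesis genes, 4 were higher and 0 lower (median log2 fold change 0.17), led by Dgat1 (1.49-fold, edgeR adjusted p = 0.0145), Mogat1 (1.48-fold, 0.0179) and Gpat4 (1.98-fold, 0.0189).

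Of the 11 tested thioesterases, which undo the members' reaction, 4 were higher and 0 lower (median log2 fold change 0.36). Among these Acot2 (1.63-fold, edgeR adjusted p = 0.0145), Acot1 (4.17-fold, 0.024) and Acot4 (1.96-fold, 0.0368) led the list. The coding sequences of the first pair are so alike that reads may have been split between them. Of the 8 PPAR regulators, 2 were higher and 0 lower (median log2 fold change 0.23), Rxrb (1.42-fold, edgeR adjusted p = 0.0178) and Ppargc1b (1.53-fold, 0.0198), while Rxrg at 1.22-fold was not called (0.108).

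**Figure D5:**
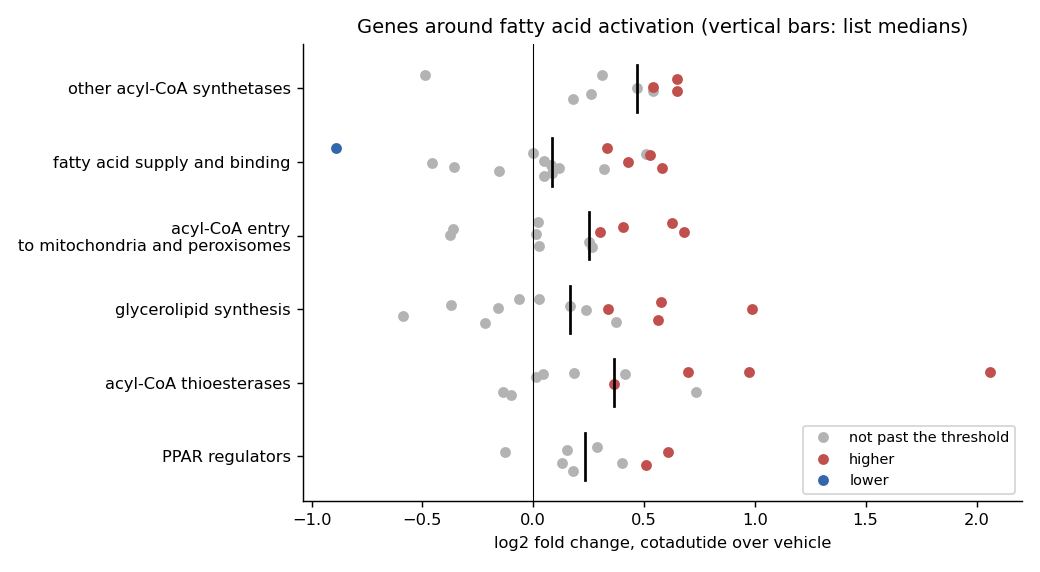
Log2 fold change, cotadutide over vehicle (horizontal axis), of the 68 tested genes in 6 lists, coloured by edgeR call, with bars for list medians. All 6 medians lie right of 0, from 0.08 to 0.47, and 1 gene, in the supply and binding list, was called lower.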

How the data were processed

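RNA of brown adipose tissue was sequenced from 9 mice after polyA selection, with the NEBNext Ultra RNA kit and from 30 mg of tissue, per the labels' protocols. Per the submitters' processing notes the build was mm10, and the tools listed are Subread 1.5.2 with featureCounts, STAR 2.5.2b, Trimmomatic 0.36 and bcl2fastq 2.17. The strand mode and annotation release of the counting were not given in the sources. The deposited values are raw counts per Ensembl gene, as whole numbers with a different total in each file. The file's length column was used only for CPM per kb. Of 49315 identifiers, 48970 were matched to a symbol in a reference table of mouse gene names, and the rest held 0.0310% of counts.

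The groups came from the labels. edgeR 4.0.16 in R 4.3.3 was run with filterByExpr (14747 genes kept, 99.9% of counts), trimmed mean of M values scaling (factors 0.915 to 1.06), glmQLFit with the robust option and glmQLFTest, with group as the only term. SE was the size of the log2 fold change over the square root of F. log2 CPM for profiles and muscle score used a prior count of 2. Alternatives were other scalings and filters, limma 3.58.1 voom, DESeq2 1.42.0, a muscle score as covariate, a mouse number block and leaving out each library. Mice were separate animals, and chi-square values per degree of freedom between pairs of libraries started at 12.7, so each counted as 1 replicate. Vehicle mouse 4 stood apart, at 55.5 to 73.2 from the other vehicle mice, which were 13.8 to 20.0 from each other. Pairs of cotadutide mice were at 12.7 to 39.9. The members, lists, motifs and tests were chosen with earlier results of these data known. The genes named beside the members were at most 3 per list by adjusted p, besides Got2, which was added after its values were seen, and the 3 nearest profiles of Slc27a1, Slc27a2, Acsl1 and Acsl5. Promoter windows were from RefSeq on GRCm38.p6. Of 3 other members' exon overlaps, Gm26697 with Slc27a2, Gm45244 with Acsl1 and Utp14b with Acsl3, each partner had fewer counts than the member.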

Additional observations from a re-analysis of the deposited data

Results flagged for a closer look

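Slc27a1 in cotadutide mouse 5, at 363 CPM, stood apart from the other 4 cotadutide mice, whose nearest value was 439 CPM. The gap was 0.778 of the group's range, above the 0.71 of Dixon's criterion for 5 samples. It was 1 of 20 sets of values examined (10 members in 2 groups), and chance gives about 1 in 20. Its library was also the shallowest, at 10759631 counts, and without it the log2 fold change of Slc27a1 was 0.88 (edgeR adjusted p = 0.0143).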

How the results depend on the processing

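Slc27a1 was called in 18 of 19 alternatives, Slc27a2 in 16 and Acsl6 in 15, none with a change of direction. The fit with a muscle score, whose values did not overlap between the groups, called 0 genes over all, 0 members and 0 list genes. In it Slc27a3 turned to 0.0321, Acsl1 to 0.0391 and Acsl3 to 0.000963 on the log2 scale, all uncalled. Without a filter Slc27a2 missed the threshold (log2 fold change 1.32, edgeR adjusted p = 0.0543), and the cause was not tested. Leaving out 1 library gave 139 (without vehicle mouse 1) to 3704 (without vehicle mouse 4) calls over all genes against 2750, and also moved it to 814 or 1364 (cotadutide mouse 2 or 3 left out) and to 603 or 757 (vehicle mouse 2 or 3 left out). It gave 1 to 4 members against 3 (1 without vehicle mouse 1), and 2 to 37 list genes against 22. Acsl1 ranged from -0.104 to 0.0464 over these fits and was above 0 without cotadutide mouse 3 (0.00374), vehicle mouse 1 (0.0464) or vehicle mouse 3 (0.0145). With the mouse number as a replicate block, edgeR called 1284 genes, 11 list genes and the 3 members Slc27a1, Slc27a2 and Acsl6. The numbers share no animal, and deviations of same-numbered mice correlated from -0.0400 to 0.135. Differently numbered mice were not set beside these values, so whether mice of 1 number share anything else was not tested. DESeq2 called 3392 genes and limma-voom 2990, with 3 members each. The calls split into 1372 higher and 1378 lower, against 1049 and 1658 with plain library totals, 1187 and 1599 with a stricter filter, and 900 and 1264 without a filter. Depth limits Slc27a6, Slc27a3 and Acsl6, which had few counts per library.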
